A study of Lotus japonicus with 18 samples.

Results

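Shoots of the legume Lotus japonicus that carried the genotype Lmyb36-2 (line 2) were compared with shoots of the wild type (WT), both grown without salt. The members were the 6 libraries that the labels place in these 2 groups, 3 per group, of 18 in the series. Levels are in FPKM, fragments per kilobase of gene length, divided by a scaling depth for each library that is not its read total. The genes were those that reached 1 FPKM in 3 or more libraries of the table. That rule kept 20433 of 33994 entries. Both groups received 'Hornum' nutrient solution with no NaCl, and shoots were cut on plants grown for 34 days, when the lights had been on for 4 hours. Line 1 (Lmyb36-1) without salt and the salt groups of WT and line 2, which were given NaCl in steps of 50 mM, 4 days apart, and stood 2 days at the final 100 mM, are used below for comparison, also with 3 libraries each. The series describes the mutant as a knockout of LjMYB36. The sources used here do not give the gene identifier of LjMYB36, the kind of mutation, the WT accession or any backcrossing. Replicates are labelled biological, with no word on separate pots or pooled plants, so the p-values measure the spread between these samples.

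MYB36 is an R2R3 MYB transcription factor. In Arabidopsis roots it is the main activator of the genes that build the Casparian strip, the lignin band that seals the endodermis, and among its targets there are the CASP membrane scaffold proteins, a dirigent protein and a peroxidase. Legume shoots also make flavonoids and isoflavonoids from phenylalanine: phenylalanine ammonia-lyase opens the general phenylpropanoid pathway, chalcone synthase starts the flavonoid branch, and isoflavone and pterocarpan enzymes lead to the legume defence compounds called phytoalexins, such as vestitol.

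The 6 libraries held between 48262582 and 90456482 reads, recovered from the FPKM values and gene lengths. Within groups, the first principal component of the 18 libraries (30.8% of the variance) ran without a clean break, 9 libraries on each side of 0. The 8 libraries that scored 9.51 or more on it are the last 8 columns of the deposited table, and they include WT replicate 2 and line 2 replicate 3. The next library scored 0.736, and wider gaps lay among the other 10. Counts of most lists are also given without those 8 libraries, a choice made after seeing the data, which leaves 2 WT and 2 line 2 libraries. In line 1 without salt it leaves replicate 1 alone. The shoot label was checked with marker genes. A RuBisCO small subunit gene, LotjaGi2g1v0052900, stood between 11496 and 15040 FPKM in the 6 libraries, while the highest value of the 4 leghemoglobin genes, which mark nodules, was 0.257 FPKM. Of 21 flower and pollen markers 0 were higher and 2 lower (9.52%), of 4 seed markers 1 was higher (25%) and of 8 nodule-described genes 0 were called. Among all tested genes 7.22% were higher and 5.35% lower. The summed level of the flower and pollen list ranged from 213 to 228 FPKM in WT and from 197 to 210.3 FPKM in line 2, and the part of other tissues in the results was not tested.

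The table describes 5 genes as MYB36 by similarity, and the libraries do not point to one of them as the mutated gene. LotjaGi4g1v0091600 had 6.596, 6.45 and 6.05 FPKM in WT and 3.67, 4.58 and 3.81 in line 2, without overlap (log2 change -0.61 ± 0.22 (SE), adjusted p = 0.079). LotjaGi1g1v0688400 had 1.07, 1.21 and 1.84 FPKM in WT and 2.99, 3.15 and 2.23 in line 2 (log2 change 0.82 ± 0.27 (SE), adjusted p = 0.061), and LotjaGi3g1v0486500 had 0.579, 0.4196 and 0.801 FPKM in WT and 1.46, 1.01 and 0.585 in line 2 (log2 change 0.44 ± 0.30 (SE), adjusted p = 0.39). None of these 3 passed the threshold, but a fit restricted to the 2 groups gave an adjusted p of 0.0097 for LotjaGi4g1v0091600 and 0.026 for LotjaGi1g1v0688400. The other 2 were under the filter on low values. LotjaGi3g1v0167900 had 0.426, 0.159 and 0.486 FPKM in WT and 0.677, 0.1003 and 0.133 in line 2. LotjaGi4g1v0298100 had 0.0854, 0.0425 and 0.145 FPKM in WT and 0.781, 0.891 and 0.639 in line 2. In a fit with no filter LotjaGi4g1v0298100 was called higher in line 2 (log2 1.10, adjusted p = 0.0091), and LotjaGi3g1v0167900 was not called (adjusted p = 0.84). All 5 had reads in line 2, and a transcript level does not check a mutation that leaves the transcript in place.

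Line 2 differed from WT in 2570 genes at an adjusted p under 0.05 (limma, 12.6% of those tested), of which 1476 (7.22%) were higher and 1094 (5.35%) lower in line 2. The higher side reached further: 655 genes (3.21%) were called and at least 2-fold higher, against 191 (0.935%) at least 2-fold lower, and 68 against 6 passed 8-fold. The median log2 change was 0.92 among the genes called higher and -0.54 among those called lower, where log2 values are on log2(FPKM + 0.5). Of the called genes, 1468 and 1093 did not overlap between the 3 WT and the 3 line 2 libraries, while 18.2% and 18.6% of all tested genes were without overlap in each direction. An unadjusted p under 0.05 was reached by 5262 genes (25.8%). The share of higher genes among the calls, 57.4%, was 73.9% (1820 higher, 643 lower) with libraries scaled to their gene total and 71.3% (1822 and 734) by limma voom on the recovered reads. It was 51.3% (1424 and 1351) with quantile normalization and 50.6% (877 of 1732 calls) when a mean of 5 FPKM or more was required, so the excess of higher genes depends on the scaling and the filter. Leaving out WT replicate 3, line 2 replicate 2 or line 2 replicate 3 gave 1685, 1687 or 1708 calls, and leaving out any of the 3 or WT replicate 1 or line 2 replicate 1 took the lower count to between 625 and 715. Without the 8 libraries, 857 genes were higher and 448 lower.

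**Figure D1:**
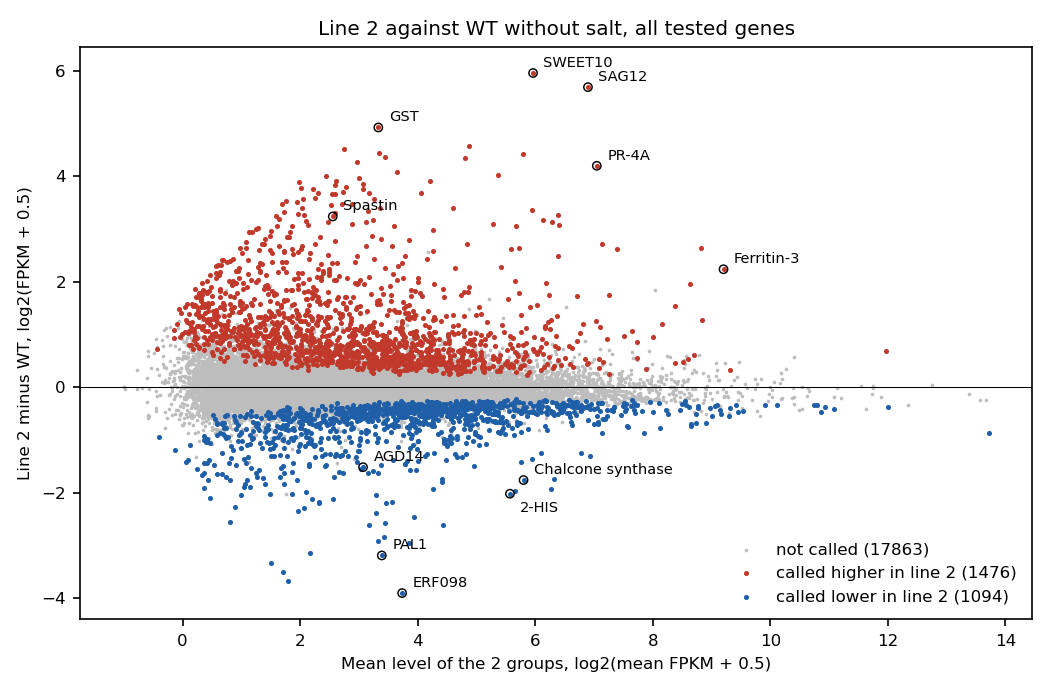
Change of each tested gene (line 2 minus WT without salt, log2(FPKM + 0.5), vertical axis) against its mean level in the 2 groups (log2 of mean FPKM + 0.5, horizontal axis). Red points are the 1476 genes called higher in line 2, blue points the 1094 called lower and grey points the rest; the genes with a label are circled, and the points above 2 are far more numerous than those below -2.

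The largest increases among well expressed, described genes were in a sugar transporter and a senescence protease. SWEET10 (LotjaGi1g1v0335600), of the SWEET family that lets sugars pass out of cells along their gradient, had 2.44, 1.33 and 0.8004 FPKM in WT and 147, 139 and 80.97 in line 2 (log2 change 5.96 ± 0.51 (SE), adjusted p = 6.0e-07). SAG12 (LotjaGi6g1v0324100), a vacuolar cysteine protease that marks leaf senescence in Arabidopsis, had 2.89, 7.44 and 2.92 FPKM in WT and 208, 238 and 253 in line 2 (log2 change 5.69 ± 0.31 (SE), adjusted p = 6.7e-09). In both genes every line 2 library stood more than 10 times above every WT library. The neighbour of SWEET10, SWEET13 (LotjaGi1g1v0335500), was listed at 0 in the 3 WT libraries and had 21.3, 10.02 and 5.94 FPKM in line 2 (adjusted p = 8.1e-04, and 0.27 by limma voom). A further SWEET gene of the same stretch, LotjaGi1g1v0335200, rose from 10.96 ± 0.888 to 20.9 ± 5.22 FPKM (SD, n = 3; adjusted p = 0.0041). The 3 genes lie on chromosome 1 with gaps of 30862 and 28390 bases, and reads of similar copies may be shared or split between them. Over all sugar transporters and invertases, 6 higher and 3 lower of 49 tested passed (12.2% and 6.12%, against 7.22% and 5.35% of all tested genes). Without the 8 libraries 4 and 0 passed. The median log2 change of the list, -0.02, was near that of all tested genes, -0.01.

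A pair of chlorophyll breakdown genes was also higher. STAY-GREEN (LotjaGi4g1v0217600), the enzyme that takes magnesium out of chlorophyll a, had 3.28, 3.39 and 2.49 FPKM in WT and 10.1, 10.1 and 10.8 in line 2 (log2 change 1.62 ± 0.21 (SE), adjusted p = 5.6e-05). Pheophorbide a oxygenase (LotjaGi3g1v0484200), which opens the chlorophyll ring, had 20.6, 20.2 and 19.8 FPKM in WT and 37.8, 39.1 and 36.9 in line 2 (log2 change 0.89 ± 0.08 (SE), adjusted p = 9.4e-07). Neither gene overlapped between the groups. A SAG101 gene (LotjaGi2g1v0250800), named for senescence and in Arabidopsis a partner of EDS1 in immunity, rose from 4.36 ± 1.04 to 15.8 ± 0.428 FPKM (adjusted p = 1.1e-04). Of 22 tested members of the senescence and chlorophyll breakdown list 5 were higher (22.7%, against 7.22% of all tested genes) and 1, chlorophyllase-1, was lower (4 and 0 without the 8 libraries). The median of the list was 0.22 on the log2 scale. In a whole shoot, a change in the number of cells of a type, such as those of old leaves, and a change of RNA per cell cannot be told apart.

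NAC transcription factors, a plant-specific family that holds the main senescence regulators of Arabidopsis, gave 13 higher and 0 lower of 36 tested (36.1% higher), with a median log2 change of 0.43. The count was 8 and 0 without the 8 libraries and 12 and 0 with any single library left out. NAC domain-containing protein 87 (LotjaGi1g1v0639700), known in Arabidopsis for a part in cell death of the root cap, had 0.429, 0.536 and 0.355 FPKM in WT and 2.53, 4.24 and 3.11 in line 2 (log2 change 1.99 ± 0.22 (SE), adjusted p = 1.2e-05). NAC47 (LotjaGi1g1v0639500) had 1.52, 1.702 and 0.9602 FPKM in WT and 4.44, 4.76 and 5.996 in line 2 (log2 change 1.57 ± 0.22 (SE), adjusted p = 1.1e-04). Line 2 lay above WT in every library for both. The others included 2 genes described as JA2L, a jasmonate-linked NAC of tomato: LotjaGi3g1v0320800 rose from 6.39 ± 1.05 to 22.3 ± 1.83 FPKM and LotjaGi3g1v0077100 from 9.28 ± 1.42 to 23.7 ± 3.67 FPKM (SD, n = 3). The first had an adjusted p of 0.071 without the 8 libraries.

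WRKY factors, which regulate defence and senescence genes, moved both ways: 14 higher and 9 lower of 61 tested passed (23.0% and 14.8%; 9 and 6 without the 8 libraries), and the median was 0.05. A WRKY40 gene (LotjaGi1g1v0378000) that was near 0 in WT had 0.967, 0.574 and 0.312 FPKM in WT and 16.1, 13.5 and 16.2 in line 2 (log2 change 3.85 ± 0.27 (SE), adjusted p = 7.9e-08). WRKY50 (LotjaGi5g1v0047800), known in Arabidopsis for binding the PR1 promoter, rose from 3.92 ± 1.11 to 21.5 ± 0.334 FPKM. WRKY23 (LotjaGi5g1v0243200) went from 3.88 ± 0.107 to 9.498 ± 0.4703 FPKM (adjusted p = 1.4e-07). The largest decreases were in abundant members. WRKY33 (LotjaGi1g1v0449400), a regulator of camalexin and fungal defence in Arabidopsis, had 39.8, 21.1 and 36.3 FPKM in WT and 9.01, 8.597 and 9.53 in line 2 (log2 change -1.74 ± 0.40 (SE), adjusted p = 0.0086), and WRKY53 (LotjaGi4g1v0433600), a senescence regulator there, had 89.5, 62.2 and 87.8 FPKM in WT and 19.7, 17.7 and 21.8 in line 2 (log2 change -1.98 ± 0.58 (SE), adjusted p = 0.034). Each line 2 value was below each WT value in both, but WRKY53 did not pass without WT replicate 1 or 3 or without any 1 of the line 2 libraries (adjusted p between 0.077 and 0.10).

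Other transcription factors changed singly. ERF098 (LotjaGi5g1v0180400), an ethylene response factor, was the most reduced described gene among those called, with 22.9, 19.7 and 30.9 FPKM in WT and 1.36, 0.848 and 1.27 in line 2 (log2 change -3.90 ± 0.25 (SE), adjusted p = 3.0e-08), while over the AP2/ERF list 6 higher and 4 lower of 85 tested passed (7.06% and 4.71%, near the shares of all tested genes; 3 and 1 without the 8 libraries). In contrast ERF114 (LotjaGi1g1v0633400) rose from 3.12 ± 0.303 to 8.77 ± 1.07 FPKM. ZAT11 (LotjaGi1g1v0535100), a zinc finger factor of Arabidopsis stress responses, had 0.311, 0.597 and 0.4002 FPKM in WT and 10.8, 12.7 and 13.6 in line 2 (log2 change 3.79 ± 0.24 (SE), adjusted p = 2.1e-08). A gene described as HSF24 (LotjaGi4g1v0105200), of the class B heat shock factors, had 0.344, 1.39 and 0.442 FPKM in WT and 13.9, 14.3 and 17.01 in line 2 (log2 change 3.76 ± 0.29 (SE), adjusted p = 2.2e-07), and HSFB3 (LotjaGi1g1v0672000) rose from 0.0871 ± 0.0514 to 3.15 ± 0.168 FPKM. Groups were apart in all of these, which the rule for the 15 highest and 15 lowest changes required of ERF098 and ZAT11. Among 72 heat shock proteins and factors 10 were higher and 3 lower (13.9% and 4.17%, and 6 and 1 without the 8 libraries). Of 84 MYB factors 8 were higher and 1 lower (9.52% and 1.19%, and 4 and 0 without the 8 libraries). The smallest adjusted p of the family was that of an assembled transcript described as MYB124, which rose from 0.0562 ± 0.0333 to 1.41 ± 0.0698 FPKM (adjusted p = 3.5e-04). MYB48 (LotjaGi2g1v0369100) rose from 14.2 ± 1.76 to 21.6 ± 0.776 FPKM (adjusted p = 0.0025).

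Glutathione S-transferases, which join glutathione to toxic or oxidised compounds, were the family with the highest share of higher genes among the 37 lists. They gave 21 higher and 1 lower of 52 tested (40.4% and 1.92%; 17 and 1 without the 8 libraries), with a median log2 change of 0.43. A neighbouring pair on chromosome 5 changed most. LotjaGi5g1v0258300 had 2.11, 8.201 and 4.62 FPKM in WT and 87.4, 111 and 115 in line 2 (log2 change 4.42 ± 0.29 (SE), adjusted p = 3.7e-08), and LotjaGi5g1v0258400, 7892 bases away, had 0, 0.436 and 0.06096 FPKM in WT and 17.8, 20.2 and 18.8 in line 2 (log2 change 4.92 ± 0.28 (SE), adjusted p = 7.9e-09). A gene of the parA type, LotjaGi6g1v0043900, rose from 0.227 ± 0.23001 to 6.96 ± 1.43 FPKM. At the other end of the range, the abundant PARB-type gene LotjaGi5g1v0252100 went from 304 ± 9.405 to 425 ± 6.301 FPKM (adjusted p = 0.0089), and LotjaGi3g1v0221800 was the 1 member that was lower, 33.5 ± 7.902 against 16.5 ± 1.56 FPKM. Copies of this family may share reads.

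The core antioxidant list (catalase, peroxiredoxins, glutaredoxins, ascorbate enzymes) gave 7 higher and 5 lower of 53 tested (6 and 2 without the 8 libraries). The shares were 13.2% and 9.43%. Glutathione peroxidase 2 (LotjaGi4g1v0458000) rose from 47.99 ± 5.09 to 77.1 ± 1.5001 FPKM, and the glutaredoxin S6 gene LotjaGi1g1v0768200 from 1.48 ± 0.775 to 8.01 ± 1.64 FPKM. Secreted class III peroxidases, which act in the cell wall, gave 9 higher and 1 lower of 43 tested (20.9% and 2.33%). Without the 8 libraries 6 and 1 passed. Peroxidase 52 (LotjaGi1g1v0309600) had 2.61, 4.51 and 4.23 FPKM in WT and 42.96, 39.9 and 48.7 in line 2 (log2 change 3.40 ± 0.21 (SE), adjusted p = 1.5e-08). Cytochrome P450s named by family gave 18 higher and 5 lower of 98 tested (18.4% and 5.10%, and 13 and 3 without the 8 libraries). CYP84A1 (LotjaGi2g1v0384500), the ferulate 5-hydroxylase of syringyl lignin, was among the higher ones. It had 3.896, 4.4996 and 3.304 FPKM in WT and 17.8, 17.96 and 21.2 in line 2 (log2 change 2.15 ± 0.19 (SE), adjusted p = 6.8e-07). UDP-glycosyltransferases gave 6 higher and 5 lower of 49 tested (12.2% and 10.2%, and 3 and 2 without the 8 libraries). Expansins, xyloglucan enzymes and pectinesterases of the cell wall gave 8 higher and 5 lower of 110 tested (7 and 0 without the 8 libraries). These shares, 7.27% and 4.55%, were near those of all tested genes, 7.22% and 5.35%. A pectinesterase gene (LotjaGi1g1v0763400) had 0.242, 0.699 and 0.636 FPKM in WT and 22.9, 16.7 and 21.2 in line 2 (log2 change 4.36 ± 0.29 (SE), adjusted p = 4.0e-08).

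**Figure D2:**
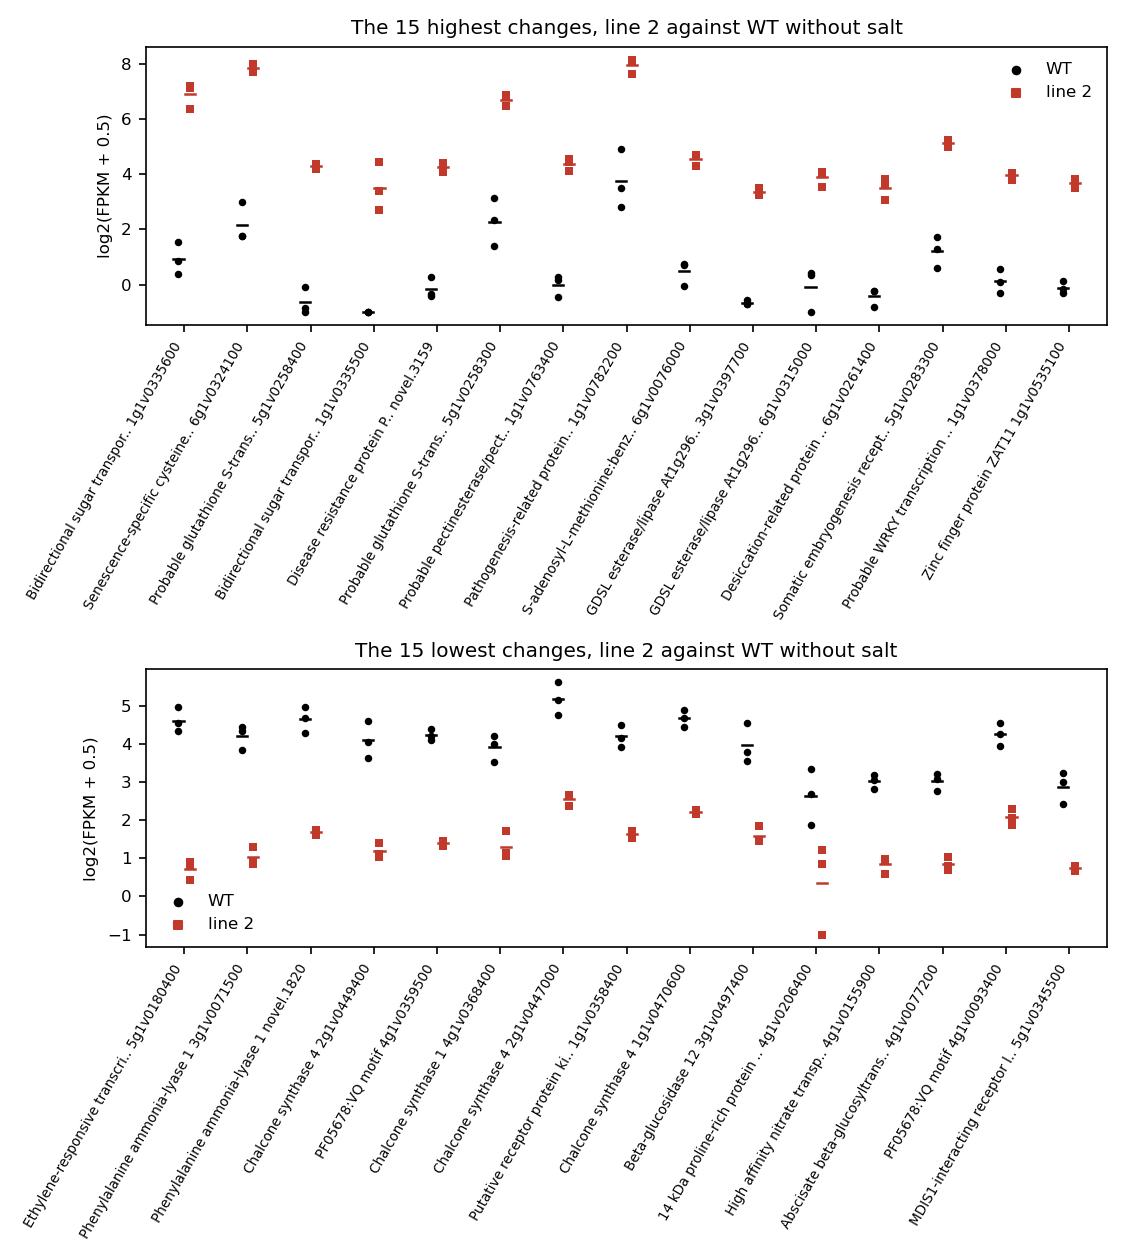
Level of the 15 genes with the highest and the 15 with the lowest change by the naming rule in each WT (black circles) and line 2 (red squares) library without salt, as log2(FPKM + 0.5), with a bar at the mean of the 3 libraries; identifiers leave out the prefix LotjaGi. The groups are apart in all 30 genes, since that is part of the rule, and the fourth gene of the upper panel, SWEET13, is listed at 0 in WT.

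Defence proteins moved both ways, with the larger changes upward. Of 96 pathogenesis-related proteins (chitinases, glucanases, thaumatin-like and PR-10 proteins) 17 were higher and 13 lower (17.7% and 13.5%; 15 and 7 without the 8 libraries), while the median, -0.08, was slightly below 0. Of the called ones 13 were at least 2-fold higher and 2 at least 2-fold lower. PR-4A (LotjaGi1g1v0782200), a chitin-binding defence protein, had 6.55, 29.5 and 10.9 FPKM in WT and 196, 283 and 265 in line 2 (log2 change 4.20 ± 0.38 (SE), adjusted p = 9.4e-07). A glucan endo-1,3-beta-glucosidase (LotjaGi3g1v0535300), an enzyme that cuts fungal wall glucan and callose, had 12.03, 17.3 and 16.99 FPKM in WT and 145, 158 and 152 in line 2 (log2 change 3.27 ± 0.17 (SE), adjusted p = 5.1e-09). The thaumatin-like gene LotjaGi1g1v0685100 rose from 135 ± 84.6 to 763 ± 179 FPKM and the acidic endochitinase LotjaGi5g1v0294000 from 47.7 ± 16.5 to 287 ± 39.7 FPKM. On the lower side, chitinase 10 (LotjaGi5g1v0237600) had 115, 110.3 and 139.7 FPKM in WT and 27.5, 33.2 and 33.9 in line 2 (log2 change -1.93 ± 0.22 (SE), adjusted p = 1.5e-05), and 7 of the lower genes were glucan endo-1,3-beta-glucosidases, all with small changes. The largest of these was in LotjaGi1g1v0025100 (log2 change -0.71 ± 0.12 (SE), adjusted p = 8.9e-04).

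A methyltransferase of the SABATH family, described as acting on benzoic and salicylic acid (LotjaGi6g1v0076000), had 0.473, 1.15 and 1.19 FPKM in WT and 19.2, 24.8 and 25.5 in line 2 (log2 change 4.07 ± 0.30 (SE), adjusted p = 1.1e-07). Among immune receptors of the NLR type, which detect pathogen effectors inside the cell, 16 higher and 8 lower of 165 tested passed (9.70% and 4.85%; 8 and 6 without the 8 libraries), close to all tested genes, with a median of -0.12. An assembled transcript described as the rice resistance protein Pik-1 stood out with 0.284, 0.717 and 0.246 FPKM in WT and 16.3, 19.7 and 20.8 in line 2 (log2 change 4.44 ± 0.28 (SE), adjusted p = 2.1e-08). Cell surface kinases of the cysteine-rich, wall-associated and lectin types gave 19 higher and 11 lower of 103 tested (18.4% and 10.7%). Without the 8 libraries 11 and 4 passed. A wall-associated kinase 2 gene (LotjaGi1g1v0270300), which binds pectin, had 0.135, 0.803 and 0.3404 FPKM in WT and 9.78, 11.8 and 10.5 in line 2 (log2 change 3.65 ± 0.26 (SE), adjusted p = 1.0e-07), and the SERK2-described kinase LotjaGi5g1v0283300, of the co-receptor family of BAK1, had 1.02, 2.83 and 1.97 FPKM in WT and 31.05, 34.6 and 37.03 in line 2 (log2 change 3.90 ± 0.25 (SE), adjusted p = 2.1e-08). Lower were the ZmPK1-described kinase LotjaGi1g1v0358400 with 17.4, 14.7 and 22.3 FPKM in WT and 2.602, 2.805 and 2.38 in line 2 (log2 change -2.57 ± 0.18 (SE), adjusted p = 4.7e-08) and a MIK2-described kinase, LotjaGi5g1v0345500, from 7.07 ± 2.06 to 1.19 ± 0.0819 FPKM. In each of these 5 kinases and receptors the groups did not overlap. The rule for the 15 highest and 15 lowest changes required this of all but the wall-associated kinase.

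Many genes of the flavonoid and isoflavonoid pathways were lower. At the entry, 4 of the phenylalanine ammonia-lyase genes were lower. LotjaGi3g1v0071500 had 19.7, 13.998 and 21.5 FPKM in WT and 1.41, 1.31 and 1.94 in line 2 (log2 change -3.19 ± 0.44 (SE), adjusted p = 1.1e-04) and an assembled transcript with the same description had 25.4, 18.9 and 31.1 FPKM in WT and 2.87, 2.54 and 2.84 in line 2 (log2 change -2.95 ± 0.43 (SE), adjusted p = 1.7e-04). The adjacent genes LotjaGi1g1v0690200 and LotjaGi1g1v0690300 fell from 31.9 ± 6.41 to 11.9 ± 0.687 FPKM and from 13.8 ± 1.29 to 4.25 ± 0.276 FPKM (SD, n = 3). One 4-coumarate-CoA ligase, the enzyme that activates the acid for the branches, was lower (LotjaGi2g1v0450000, 46.9 ± 3.23 against 26.5 ± 1.19 FPKM) and another was higher (LotjaGi4g1v0299500, 9.12 ± 0.924 against 14.4 ± 0.614 FPKM). In all, 1 higher and 6 lower of 16 tested passed (6.25% and 37.5%; 0 and 5 without the 8 libraries), with a median of -0.18.

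Of 38 flavonoid enzymes 14 were lower (36.8%) and 6 higher (15.8%), with a median of -0.33 (10 lower and 4 higher without the 8 libraries). Chalcone synthase genes made up 9 of the 14. The most abundant of the 9, LotjaGi2g1v0446700, had 72.4, 68.4 and 118 FPKM in WT and 21.9, 26.2 and 25.1 in line 2 (log2 change -1.76 ± 0.22 (SE), adjusted p = 3.7e-05). LotjaGi1g1v0470600 had 25.3, 21.5 and 29.3 FPKM in WT and 4.29, 3.996 and 4.14 in line 2 (log2 change -2.47 ± 0.14 (SE), adjusted p = 9.4e-09), and LotjaGi2g1v0449400, 16.1, 11.9 and 23.95 FPKM in WT and 1.65, 1.56 and 2.14 in line 2 (log2 change -2.92 ± 0.29 (SE), adjusted p = 3.2e-06). No chalcone synthase of these 3 overlapped between the groups, which the rule for the 15 lowest changes required of LotjaGi1g1v0470600 and LotjaGi2g1v0449400. The family was not uniform: LotjaGi2g1v0449300, which lies in the same region as several lower copies, rose from 33.4 ± 6.69 to 63.8 ± 6.72 FPKM (adjusted p = 2.0e-04). The most abundant chalcone synthase, LotjaGi1g1v0635000, did not pass the test, at 565 ± 134 FPKM in WT and 389 ± 24.6 FPKM in line 2 (adjusted p = 0.14, and 0.024 without the 8 libraries). Near-identical copies may share or split reads. The next enzyme, chalcone isomerase (LotjaGi5g1v0359260), had 38.2, 105 and 76.5 FPKM in WT and 187, 275 and 232 in line 2 (log2 change 1.75 ± 0.40 (SE), adjusted p = 0.0074). Later flavonoid steps changed less: flavanone 3-dioxygenase (LotjaGi3g1v0300200) had 76.7, 90.3 and 72.1 FPKM in WT and 55.3, 62.1 and 53.6 in line 2 (adjusted p = 0.0061, and 0.10 without the 8 libraries), and a dihydroflavonol reductase (LotjaGi5g1v0013700) rose from 10.6 ± 2.47 to 17.96 ± 1.34 FPKM (adjusted p = 0.0027).

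Isoflavonoid and pterocarpan enzymes gave 6 higher and 10 lower of 28 tested (21.4% and 35.7%; 4 and 9 without the 8 libraries), with a median log2 change of -1.6e-04. The lower genes included the steps that make the isoflavone core. 6'-deoxychalcone synthase (LotjaGi1g1v0006500), which gives the chalcone its legume form, had 113, 94.7 and 162 FPKM in WT and 36.1, 35.2 and 36.1 in line 2 (log2 change -1.73 ± 0.20 (SE), adjusted p = 1.5e-05). 2-hydroxyisoflavanone synthase (LotjaGi4g1v0063900), the P450 that moves the aryl ring, had 58.3, 59.9 and 111 FPKM in WT and 16.6, 16.8 and 19.6 in line 2 (log2 change -2.02 ± 0.28 (SE), adjusted p = 1.2e-04). 2-hydroxyisoflavanone dehydratase (LotjaGi5g1v0316500), which completes the isoflavone, had 83.8, 94.9 and 109 FPKM in WT and 37.7, 37.1 and 44.5 in line 2 (log2 change -1.25 ± 0.14 (SE), adjusted p = 1.3e-05). In all 3 each line 2 value lay below each WT value. For isoflavone 2'-hydroxylase (LotjaGi4g1v0019000) the level fell from 173 ± 44.4 to 68.5 ± 5.22 FPKM, and for isoflavone 4'-O-methyltransferase (LotjaGi4g1v0062900) from 156 ± 41.8 to 64.1 ± 3.995 FPKM. Among the higher genes were enzymes of the last steps: vestitone reductase (LotjaGi1g1v0462000) had 4.98, 5.21 and 5.21 FPKM in WT and 11.7, 14.8 and 12.2 in line 2 (log2 change 1.24 ± 0.15 (SE), adjusted p = 3.3e-05), and pterocarpan synthase 1 (LotjaGi1g1v0733200), the dirigent enzyme that closes the pterocarpan ring, had 0.5799, 1.16 and 1.69 FPKM in WT and 13.3, 5.48 and 5.58 in line 2 (log2 change 2.33 ± 0.34 (SE), adjusted p = 1.9e-04). Also higher were an isoflavone 7-O-methyltransferase (LotjaGi1g1v0513400), from 7.69 ± 3.49 to 25.1 ± 0.562 FPKM, and a lowly expressed dehydratase gene (LotjaGi1g1v0018600), from 0.9303 ± 0.685 to 7.02 ± 0.212 FPKM.

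The lignin branch and the Casparian strip genes had no member called lower, where 7.22% of all tested genes were higher and 5.35% lower. With a single library left out, up to 1 lignin branch member was called lower. Of 44 lignin branch enzymes and laccases 7 were higher (15.9%; 4 and 0 higher and lower without the 8 libraries), and the median was -0.01. Caffeic acid 3-O-methyltransferase (LotjaGi1g1v0005500), which methylates lignin precursors, had 3.17, 4.74 and 3.59 FPKM in WT and 18.5, 20.5 and 23.02 in line 2 (log2 change 2.30 ± 0.17 (SE), adjusted p = 1.3e-07). Cinnamyl alcohol dehydrogenase 1 (LotjaGi6g1v0348000), the last step to the monolignols, had 11.7, 11.1 and 13.3 FPKM in WT and 26.6, 29.6 and 31.4 in line 2 (log2 change 1.25 ± 0.11 (SE), adjusted p = 1.2e-06). Both were apart from WT in every library. Of 40 CASP-like, other Casparian strip and dirigent genes 5 were higher (12.5%), and the count was 2 without the 8 libraries and between 2 and 4 with a single library left out. CASP-like protein 1D2 (LotjaGi4g1v0346100) had 0.791, 1.88 and 1.62 FPKM in WT and 14.3, 16.2 and 18.7 in line 2 (log2 change 3.17 ± 0.25 (SE), adjusted p = 2.1e-07); it belongs to the wider CASP-like family and is not a root Casparian strip CASP by its name. CASP-like protein 4C1 (LotjaGi1g1v0075300) rose from 3.81 ± 0.848 to 6.42 ± 0.798 FPKM, and 2 dirigent protein 19 genes, LotjaGi3g1v0200600 and LotjaGi3g1v0200700, from 21.8 ± 7.49 to 50.1 ± 5.62 FPKM and from 11.6 ± 2.16 to 20.5 ± 1.43 FPKM. These 3 were less firm: 4C1 and LotjaGi3g1v0200700 did not pass without WT replicate 3 (adjusted p = 0.056 and 0.053), 4C1 not without line 2 replicate 3 either (0.052), and LotjaGi3g1v0200600 not without WT replicate 1 (0.15) or any 1 of the line 2 libraries (0.054 to 0.092). Of 29 suberin and cuticle enzymes 2 were higher and 2 lower, near the shares of all tested genes.

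**Figure D3:**
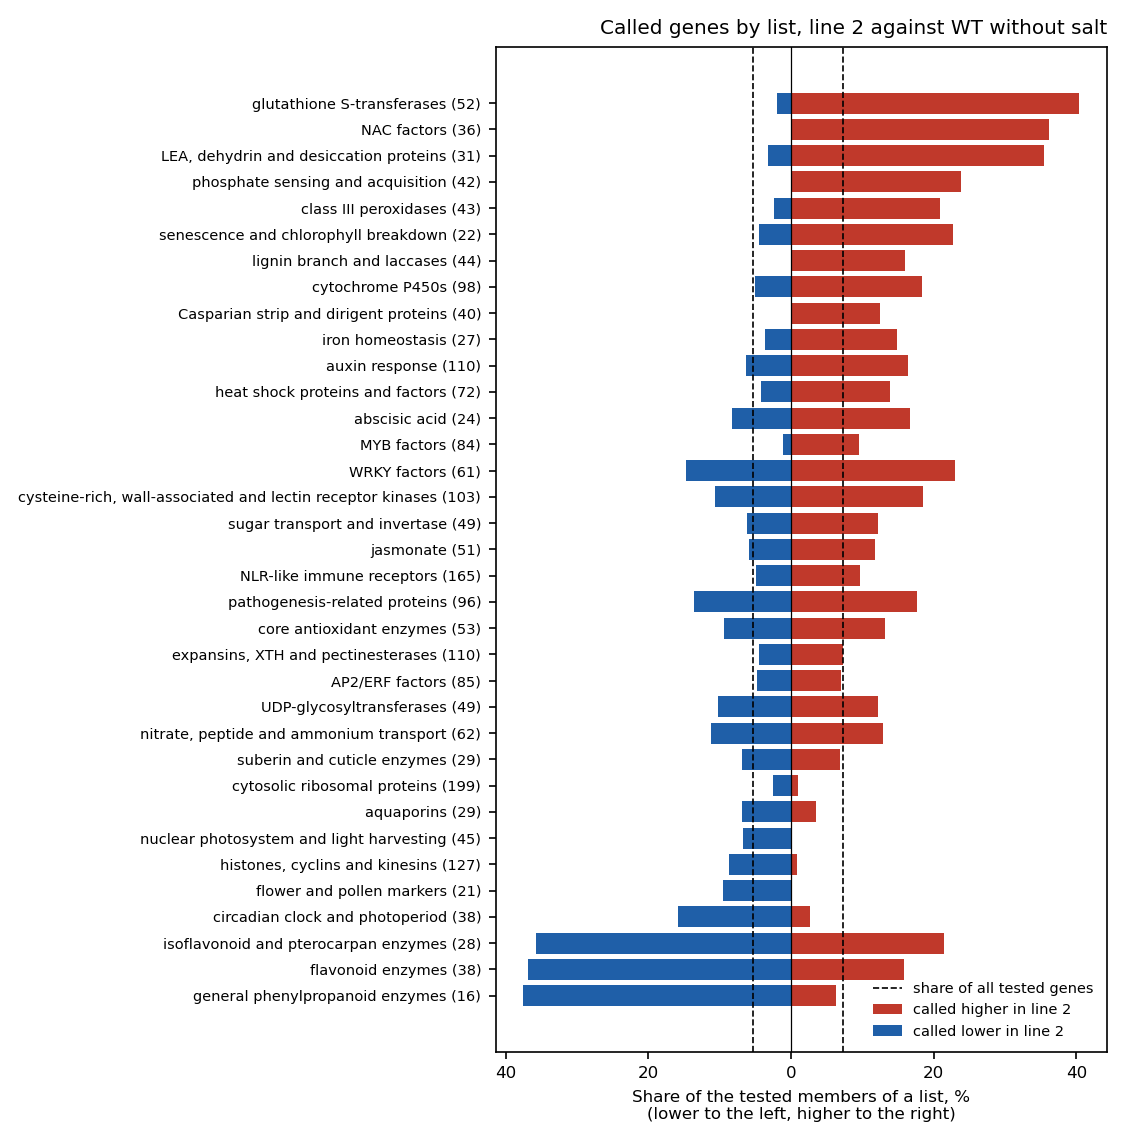
Share of the tested members of each gene list called higher (red, right) or lower (blue, left) in line 2 than in WT without salt, in percent, for the lists with at least 10 tested members (number in brackets). Dashed lines give the shares of all tested genes, 7.22% higher and 5.35% lower; glutathione S-transferases reach 40.4% higher and general phenylpropanoid enzymes 37.5% lower.

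Several genes known from water deficit were higher. Of 31 late embryogenesis abundant, dehydrin and desiccation proteins, which shield cells as they dry, 11 were higher and 1 lower (35.5% and 3.23%; 8 and 1 without the 8 libraries), with a median of 0.26. The desiccation protein PCC13-62 (LotjaGi6g1v0261400) had 0.0707, 0.362 and 0.344 FPKM in WT and 11.6, 7.81 and 13.5 in line 2 (log2 change 3.91 ± 0.31 (SE), adjusted p = 2.3e-07). A Lea14 homologue (LotjaGi1g1v0481800) had 15.6, 16.8 and 17.5 FPKM in WT and 49.4, 48.2 and 47.5 in line 2 (log2 change 1.51 ± 0.09 (SE), adjusted p = 1.1e-08), and an assembled dehydrin transcript rose from 173 ± 22.9 to 397 ± 2.65 FPKM. The groups did not overlap in the first 2, which the rule for the 15 highest changes required of PCC13-62. NCED1 (LotjaGi3g1v0145900), the rate-limiting enzyme of abscisic acid synthesis, had 13.2, 10.2 and 6.72 FPKM in WT and 32.7, 29.5 and 36.3 in line 2 (log2 change 1.71 ± 0.29 (SE), adjusted p = 6.7e-04). A pair of enzymes that remove the hormone was lower: abscisate beta-glucosyltransferase (LotjaGi4g1v0077200) had 7.998, 6.36 and 8.81 FPKM in WT and 1.11, 1.25 and 1.56 in line 2 (log2 change -2.18 ± 0.29 (SE), adjusted p = 6.2e-05), and abscisic acid 8'-hydroxylase 4 (LotjaGi1g1v0421300) fell from 4.17 ± 0.9798 to 1.76 ± 0.228 FPKM (adjusted p = 0.0082, and 0.084 without the 8 libraries). The abscisic acid list gave 4 higher and 2 lower of 24 tested (16.7% and 8.33%, and 3 and 1 without the 8 libraries). Aquaporins gave 1 higher and 2 lower of 29 tested (3.45% and 6.90%, and 2 and 1 without the 8 libraries).

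Nutrient genes changed by element. Phosphate genes gave 10 higher and 0 lower of 42 tested (23.8%; 9 and 0 without the 8 libraries), with a median of 0.27. SPX domain-containing protein 1 (LotjaGi4g1v0270900), a phosphate sensor protein, had 49.6, 56.01 and 29.8 FPKM in WT and 97.98, 90.3 and 107 in line 2 (log2 change 1.16 ± 0.22 (SE), adjusted p = 0.0021). A phosphate transporter (LotjaGi4g1v0084800) had 6.06, 12.6 and 8.39 FPKM in WT and 33.3, 29.1 and 36.4 in line 2 (log2 change 1.86 ± 0.34 (SE), adjusted p = 0.0012), and purple acid phosphatase 20 (LotjaGi1g1v0676800), which frees phosphate from organic compounds, rose from 1.97 ± 1.13 to 12.6 ± 3.17 FPKM. Every line 2 value was above every WT value for SPX1 and the transporter.

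Ferritin-3 (LotjaGi3g1v0197600), the chloroplast protein that stores iron, had 164, 231 and 228 FPKM in WT and 963, 876 and 1073 in line 2 (log2 change 2.23 ± 0.20 (SE), adjusted p = 8.5e-07). A vacuolar iron transporter homologue (LotjaGi6g1v0356300) had 0.349, 0.993 and 0.263 FPKM in WT and 5.05, 4.51 and 7.62 in line 2 (log2 change 2.62 ± 0.42 (SE), adjusted p = 3.9e-04). Both were higher in every line 2 library. The iron list as a whole gave 4 higher and 1 lower of 27 tested (14.8% and 3.70%, against 7.22% and 5.35% of all tested genes). Without the 8 libraries 3 and 1 passed. The lower member of the list was ferric reduction oxidase 2 (LotjaGi3g1v0385800), which reduces iron for uptake, at 54.5 ± 6.98 against 34.7 ± 1.47 FPKM (adjusted p = 0.0088, and 0.050 without WT replicate 1). Nitrate, peptide and ammonium transporters moved both ways, 8 higher and 7 lower of 62 tested (12.9% and 11.3%). Without the 8 libraries 5 and 3 passed. The high affinity nitrate transporter 2.5 (LotjaGi4g1v0155900), which Arabidopsis induces on long nitrogen starvation, was lower. It had 6.59, 8.69 and 7.86 FPKM in WT and 1.01, 1.44 and 1.47 in line 2 (log2 change -2.19 ± 0.18 (SE), adjusted p = 3.9e-07). The groups did not overlap, which the rule for the 15 lowest changes required.

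Auxin response genes gave 18 higher and 7 lower of 110 tested (16.4% and 6.36%), a count that fell to 7 and 2 without the 8 libraries and to between 6 and 15 higher with a single library left out. Most of the higher ones belonged to the SAUR family of small auxin-induced RNAs, such as SAUR50 (LotjaGi1g1v0561500), from 3.11 ± 0.549 to 8.96 ± 0.924 FPKM, and IAA11 (LotjaGi1g1v0703700), an auxin co-repressor, rose from 2.998 ± 0.401 to 6.42 ± 1.61 FPKM. The lower ones included another SAUR50 gene (LotjaGi4g1v0419000), 2.002 ± 0.315 against 0.456 ± 0.365 FPKM, and the auxin response factor ARF8 (LotjaGi6g1v0048400), 10.9 ± 0.681 against 6.83 ± 0.439 FPKM. Jasmonate genes gave 6 higher and 3 lower of 51 tested (11.8% and 5.88%, and 5 and 1 without the 8 libraries). An assembled 9-lipoxygenase transcript was listed at 0 in the 3 WT libraries and had 2.91, 3.35 and 3.88 FPKM in line 2 (adjusted p = 3.9e-08).

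Lists of cell division, photosystem and clock genes had more members called lower than higher, against 5.35% lower among all tested genes. Histones, cyclins and kinesins gave 1 higher and 11 lower of 127 tested (0.787% and 8.66%) with a median of -0.14, but only 2 were lower without the 8 libraries and between 2 and 12 with a single library left out, and scaling to the gene total left 3. Cyclin A2-2 (LotjaGi1g1v0389100), a mitotic cyclin, had 6.301, 6.68 and 6.24 FPKM in WT and 3.76, 4.17 and 4.18 in line 2 (log2 change -0.61 ± 0.11 (SE), adjusted p = 0.0015, and 0.064 without the 8 libraries). Nuclear photosystem and light-harvesting genes gave 0 higher and 3 lower of 45 tested (6.67% lower, near the share of all tested genes; 4 lower without the 8 libraries), led by the antenna protein CP26 (LotjaGi2g1v0162400) with 2539, 2486 and 2430.0 FPKM in WT and 2006, 1726 and 1848 in line 2 (log2 change -0.42 ± 0.10 (SE), adjusted p = 0.0076; adjusted p = 0.49 with quantile normalization). Clock and photoperiod genes gave 1 higher and 6 lower of 38 tested (15.8% lower; 0 and 5 without the 8 libraries, and 2 lower with scaling to the gene total). GIGANTEA (LotjaGi5g1v0287700), an evening clock protein, had 109.7, 77.1 and 95.2 FPKM in WT and 57.2, 52.3 and 48.9 in line 2 (log2 change -0.82 ± 0.18 (SE), adjusted p = 0.0059), and REVEILLE 6 (LotjaGi5g1v0296400), 50.8, 37.5 and 44.9 FPKM in WT and 20.7, 20.2 and 19.7 in line 2 (log2 change -1.10 ± 0.24 (SE), adjusted p = 0.0050, and 0.052 without the 8 libraries). Of 199 cytosolic ribosomal proteins 2 were higher and 5 lower (1.005% and 2.51%, under the 7.22% and 5.35% of all tested genes). Without the 8 libraries 2 and 0 passed, and between 1 and 9 were lower with a single library left out. An assembled transcript described as RPL7-3 was one of the 2 higher members, 7.24 ± 0.322 against 10.5 ± 0.175 FPKM. The single most abundant called entry was an assembled transcript without description, with 17435, 19151 and 15376 FPKM in WT and 8776, 8635 and 11329 in line 2 (log2 change -0.86 ± 0.15 (SE), adjusted p = 8.2e-04, and 0.38 with no filter on low values). Its level in line 1 was 15850.0 ± 75.1 FPKM.

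Some genes were near 0 in one genotype and clearly present in the other. With limits of 0.1 and 1 FPKM, 21 genes were under 0.1 in all WT libraries and at least 1 in all line 2 libraries, and 5 showed the reverse. PMT16 (LotjaGi2g1v0147400), a putative pectin methyltransferase, had 0.06904, 0.0563 and 0 FPKM in WT and 7.95, 5.69 and 7.397 in line 2. A pair of GDSL lipase genes on chromosome 3, 18149 bases apart, showed the same shape. LotjaGi3g1v0397600 had 0.0213, 0.03402 and 0 FPKM in WT and 7.41, 4.12 and 4.71 in line 2. LotjaGi3g1v0397700 had 0.176, 0.118 and 0.111 FPKM in WT and 10.7, 9.05 and 9.28 in line 2 (log2 change 4.00 ± 0.15 (SE), adjusted p = 8.0e-11), just above the limit in WT. An undescribed assembled transcript was listed at 0 in the 3 WT libraries and had 7.05, 6.35 and 7.37 FPKM in line 2. A pair of retrovirus-related polyprotein genes behaved alike: LotjaGi1g1v0384600_LC had 0, 0.0544 and 0.0399 FPKM in WT and 3.92, 3.499 and 3.83 in line 2, and LotjaGi1g1v0384800_LC had 0.0273, 0.0814 and 0 FPKM in WT and 3.72, 3.87 and 3.85 in line 2. Over all 81 tested entries with that description, 13 were higher and 3 lower (16.05% and 3.70%), a group chosen after its values were seen. In the reverse direction, another assembled transcript had 7.001, 4.64 and 6.14 FPKM in WT and was listed at 0 in all 3 libraries of line 2, and LotjaGi1g1v0126500_LC had 4.91, 6.12 and 5.44 FPKM in WT and 0.0893, 0 and 0 in line 2. Neither has a description.

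Line 1 was compared with the same 3 WT libraries, so its changes are not independent of those of line 2. There, 2386 genes (11.7%) were called, 1505 (7.37%) higher and 881 (4.31%) lower. The levels stand side by side: SAG12 (LotjaGi6g1v0324100) was at 159 ± 18.97 FPKM in line 1 and 233 ± 22.9 in line 2, SWEET10 (LotjaGi1g1v0335600) at 83.3 ± 46.8 and 122 ± 35.95, and ERF098 (LotjaGi5g1v0180400) at 1.88 ± 0.414 and 1.16 ± 0.273 (SD, n = 3). For chalcone synthase LotjaGi2g1v0446700 the values were 25.7 ± 1.17 and 24.4 ± 2.22 FPKM, and for ferritin-3 (LotjaGi3g1v0197600) 973 ± 36.5 and 971 ± 98.4 FPKM. Tested directly against line 1, line 2 differed in 30 genes (0.147%), 13 higher (0.0636%) and 17 lower (0.0832%), and 749 genes (3.67%) had an unadjusted p under 0.05. The count was 18 by limma voom. Without the 8 libraries line 1 keeps replicate 1 alone, so the count of that fit, listed with the processing below, does not test this result.

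Of the 30 genes, 18 also differed between line 2 and WT, 8 higher and 10 lower, and 16 of the 18 were called in the same direction in the salt libraries, which are separate from these. Several of the higher ones were on chromosome 2. A gene described as spastin (LotjaGi2g1v0369800; chromosome 2, 86699372 to 86703028), an enzyme that severs microtubules in animals, had 0.745, 0.808 and 0.371 FPKM in WT and 10.3, 11.1 and 9.04 in line 2 (log2 change 3.24 ± 0.26 (SE), adjusted p = 2.5e-07), against 1.07, 1.16 and 1.05 FPKM in line 1 (line 2 minus line 1, log2 2.73 ± 0.26 (SE), adjusted p = 2.4e-05). The undescribed gene LotjaGi2g1v0369700_LC, which ends 455 bases before it, had 0, 0.115 and 0 FPKM in WT and 6.16, 6.58 and 4.47 in line 2. LotjaGi2g1v0372800_LC, 269119 bases beyond it, was listed at 0 in the 3 WT libraries and had 2.52, 2.14 and 1.904 FPKM in line 2. Line 1 was at 0.03096 ± 0.0536 FPKM for the first and 0.0315 ± 0.0545 FPKM for the second. Within 300000 bases on either side of spastin, a window set around a gene already called, 46 genes were tested. These 3, all among the 30 already called, were the ones that differed between the lines, where 0.147% of all tested genes did. The window reaches past the farthest of them, so the count does not test whether such genes cluster. In the same window 9 genes differed between line 2 and WT, against 12.6% of all tested genes. On the same chromosome, FLA11 (LotjaGi2g1v0361800_LC), a fasciclin-like cell surface protein, had 1.63, 1.57 and 1.84 FPKM in WT and 5.41, 4.17 and 4.299 in line 2 and 1.61, 1.94 and 2.02 FPKM in line 1, and an assembled transcript had 0, 0.102 and 0.953 FPKM in WT and 7.59, 5.13 and 4.97 in line 2. On chromosome 3, LotjaGi3g1v0226400_LC, which the table describes by a reverse transcriptase-like domain, had 0.784, 1.35 and 1.79 FPKM in WT and 15.2, 23.2 and 16.3 in line 2 (log2 change 3.39 ± 0.27 (SE), adjusted p = 2.2e-07), against 1.92, 3.91 and 3.26 FPKM in line 1 (line 2 minus line 1, log2 2.43 ± 0.27 (SE), adjusted p = 1.5e-04).

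Lower in line 2 than in both others was a gene described as the ADP-ribosylation factor GTPase-activating protein AGD14 (LotjaGi2g1v0092300), of a family that controls vesicle budding. It had 12.7, 10.8 and 12.3 FPKM in WT and 4.08, 3.69 and 3.78 in line 2 (log2 change -1.52 ± 0.12 (SE), adjusted p = 2.2e-07), against 14.2, 10.8 and 12.3 FPKM in line 1 (log2 -1.57 ± 0.12 (SE), adjusted p = 1.9e-06). A serine carboxypeptidase-like gene (LotjaGi1g1v0512700) had 8.53, 9.53 and 8.73 FPKM in WT and 5.07, 4.88 and 5.15 in line 2, against 9.71 ± 0.651 FPKM in line 1, and a lipid transfer protein gene (LotjaGi3g1v0505900) had 16.3, 19.8 and 17.1 FPKM in WT and 9.85, 9.73 and 10.9 in line 2, against 16.4 ± 0.519 FPKM in line 1. An assembled transcript of chromosome 1, with the smallest adjusted p of the 18 against WT, had 4.95, 4.94 and 4.04 FPKM in WT and 0, 0 and 0.0189 in line 2 (log2 change -3.34 ± 0.20 (SE), adjusted p = 1.1e-08), with 1.996, 1.86 and 2.96 FPKM in line 1. Line 2 stood below both other groups in every library for these 4. A remorin gene (LotjaGi5g1v0027600), of the plasma membrane proteins that bind plant receptor kinases, was intermediate, with 5.03 ± 1.205 FPKM in line 2, between 10.2 ± 1.71 in WT and 1.63 ± 0.514 in line 1. Its call against WT was lost without WT replicate 2 or 3 or line 2 replicate 1 or 3 (adjusted p between 0.050 and 0.085). The remaining 12 of the 30 differed between line 1 and WT and were not called between line 2 and WT. Positions are those of the deposited table, and the sources used here do not name its build.

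**Figure D4:**
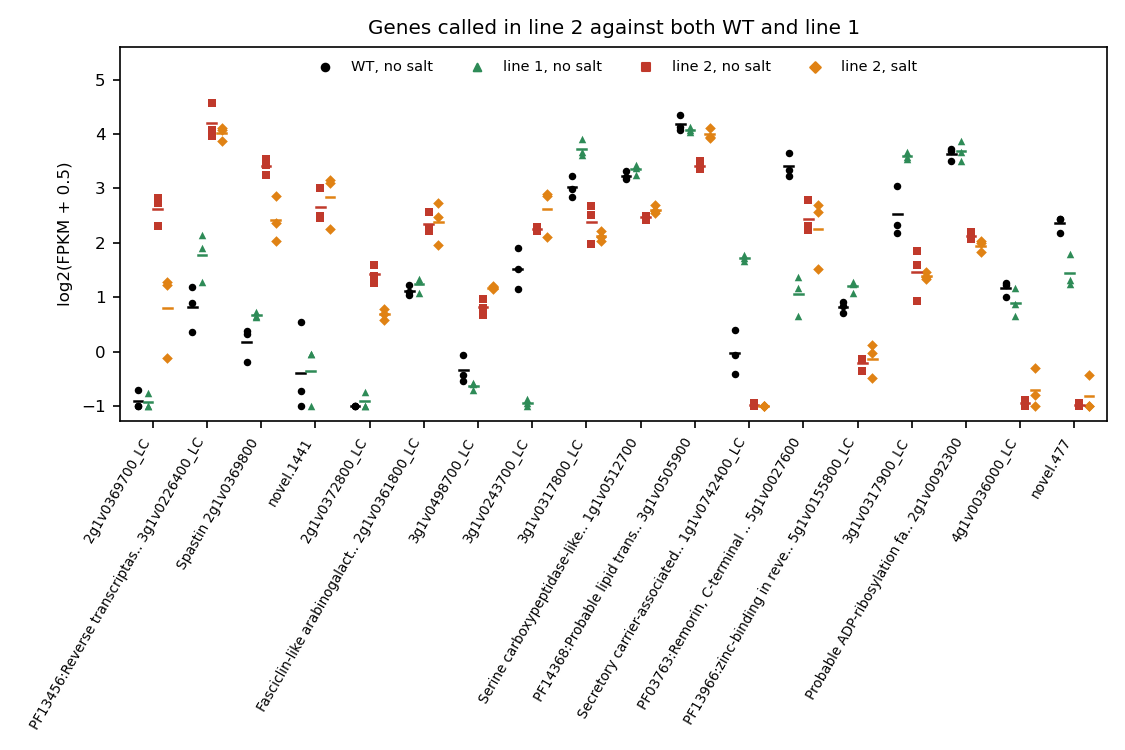
Levels of the 18 genes called in line 2 against both WT and line 1, as log2(FPKM + 0.5), in each library of WT (black circles), line 1 (green triangles) and line 2 (red squares) without salt and of line 2 with salt (orange diamonds), with a bar at the mean of 3 libraries; identifiers leave out the prefix LotjaGi. Spastin and its neighbour 2g1v0369700_LC are high in line 2 and low in WT and line 1, and the salt libraries of line 2 lie on the same side.

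With salt, line 2 and WT were compared in 6 other libraries, and 5125 genes (25.1%) were called, 3042 (14.9%) higher and 2083 (10.2%) lower. Of the 1476 genes higher without salt 967 were also higher with salt, 65.5% of that list and 31.8% of the salt list. Of the 1094 lower genes 306 were also lower with salt (27.97% and 14.7%), while 203 (18.6%) were higher in line 2 than in WT with salt. The difference between conditions itself, line 2 minus WT with salt less the same without salt, was called for 1759 genes (8.61%; 1199 positive, 5.87%, and 560 negative, 2.74%). All 255 genes with opposite calls in the 2 conditions were among them. This last test uses the libraries that chose the genes, so the direction of the difference in them is not independent.

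Among the higher genes, SAG12 (LotjaGi6g1v0324100) was at 1.45 ± 0.511 FPKM in WT and 168 ± 34.4 in line 2 with salt, a log2 change of 6.45 against 5.69 without salt. For glutathione S-transferase LotjaGi5g1v0258300 the log2 change was 5.47 with salt and 4.42 without. Ferritin-3 (LotjaGi3g1v0197600) differed: its salt levels were 167 ± 36.4 FPKM in WT and 125 ± 24.8 FPKM in line 2 (log2 -0.41, adjusted p = 0.15), so the line 2 level without salt was the one that stood apart. The glucanase LotjaGi3g1v0535300 had a larger difference with salt (log2 5.34), where WT was at 2.44 ± 0.271 FPKM against 15.4 ± 2.95 FPKM without salt.

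Several flavonoid and isoflavonoid genes that were lower in line 2 without salt were called higher in it with salt. Not all were: chalcone synthase LotjaGi4g1v0368400, lower without salt (log2 -2.62), was not called with salt (log2 0.69, adjusted p = 0.21). Chalcone synthase LotjaGi2g1v0446700 was at 3.52 ± 1.25 FPKM in WT and 27.7 ± 4.21 FPKM in line 2 with salt (log2 2.84, adjusted p = 8.0e-08), where the levels without salt were 86.2 ± 27.4 and 24.4 ± 2.22 FPKM. The 2 levels of line 2 were close to each other, and those of WT were far apart. 2-hydroxyisoflavanone synthase (LotjaGi4g1v0063900) had 3.898 ± 2.17 and 20.5 ± 3.78 FPKM with salt (log2 2.35, adjusted p = 1.1e-05). 6'-deoxychalcone synthase (LotjaGi1g1v0006500) had 5.53 ± 1.08 and 32.9 ± 5.198 FPKM (log2 2.47, adjusted p = 1.3e-07). By list, 24 of 28 isoflavonoid enzymes were higher and 0 lower with salt, against 6 and 10 without. For flavonoid enzymes the counts were 17 and 3 with salt, against 6 and 14. PAL gene LotjaGi3g1v0071500 had 0.977 ± 1.06 and 2.66 ± 0.245 FPKM with salt (log2 1.32, adjusted p = 0.038). ERF098 (LotjaGi5g1v0180400) was low in both groups with salt, 0.636 ± 0.425 FPKM in WT and 1.74 ± 0.457 FPKM in line 2, and its sign was reversed there (log2 1.02, adjusted p = 0.0072).

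**Figure D5:**
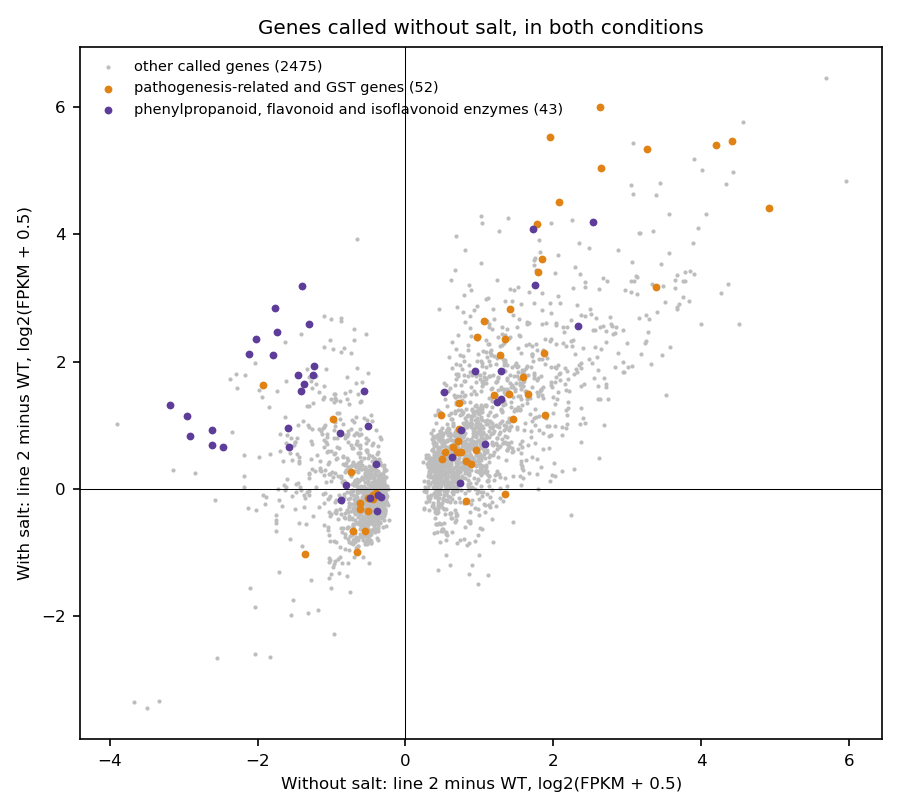
Change of the 2570 genes called without salt: line 2 minus WT without salt (horizontal) and with salt (vertical), both on log2(FPKM + 0.5) and from separate libraries. Purple points are 43 phenylpropanoid, flavonoid and isoflavonoid enzymes, orange points 52 pathogenesis-related and glutathione S-transferase genes, and grey points the other 2475; most purple points left of 0 lie above 0 on the vertical axis.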

How the data were processed

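Stranded dUTP poly(A) libraries were made from CTAB-extracted shoot RNA, per the labels' protocols. The tools named, with no role or order, are fastp, featureCounts 1.5.0-p3 and DESeq2 1.20.0, per the submitters' processing notes. The sources used here do not give the aligner, genome build or strand setting. The deposited values are FPKM per gene, and these were the only values used. FPKM times length gave whole reads (100% of values within 0.05 read), so depth is known: the 18 libraries held 42125949 to 101713201 reads. The closest pair of replicates differed by more than sampling noise (median chi-square 2.10).

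Genes that reached an FPKM of 1 in 3 or more libraries were tested with limma 3.58.1 (R 4.3.3) on log2(FPKM + 0.5), which understates changes of low genes. All 18 libraries and 6 group means entered the fit, with a mean-variance trend, two-sided tests, Benjamini-Hochberg adjustment over all tested genes and a threshold of 0.05. Tables and plots were made with Python 3.11.15, pandas 2.3.3 and matplotlib 3.10.9, and the fit was tested on simulated data. Descriptions are those of the deposited table: 22023 entries carry a Swiss-Prot name, 3599 a Pfam domain only and 8372 neither, and 0 identifiers matched the RefSeq table.

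Genes were named by rule: those described as MYB36, the 15 highest and 15 lowest called changes with a description, a mean FPKM of at least 5 and no overlap, the 2 smallest adjusted p in each of 37 lists, the 6 highest and 6 lowest differences from line 1, up to 6 genes near 0 in one group only in each direction, and up to 6 genes with opposite calls with salt. The groups and lists were chosen with earlier results of these data known, and other list members were named after their values were seen. Alternatives were 2 pseudocounts, 2 filters, 3 scalings, limma voom, a fit of the compared groups only, a replicate block, sets of libraries as a term or left out, and leaving out each library.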

Additional observations from a re-analysis of the deposited data

Results flagged for a closer look

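The difference of line 2 from WT itself differed between salt and control in 1759 genes by limma's interaction term. This test shares the control libraries with the comparison that chose most named genes. Values below are line 2 minus WT with salt less the same without salt, on the log2 scale, for each named gene that passed, so that a positive value means that line 2 stood higher relative to WT with salt.

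Enzymes of the phenylpropanoid and flavonoid pathways all had positive values. Phenylalanine ammonia-lyase genes LotjaGi3g1v0071500, an assembled transcript, LotjaGi1g1v0690200 and LotjaGi1g1v0690300 had 4.51, 4.09, 3.01 and 2.54, and the ligase LotjaGi2g1v0450000 had 0.87. Chalcone synthases LotjaGi2g1v0446700, LotjaGi2g1v0449400 and LotjaGi1g1v0470600, lower without salt, had 4.603, 3.75 and 3.13, while LotjaGi2g1v0449300, higher without salt, had 0.92. For the isoflavone core, 6'-deoxychalcone synthase LotjaGi1g1v0006500 had 4.203, the synthase LotjaGi4g1v0063900 4.37 and the dehydratases LotjaGi5g1v0316500 and LotjaGi1g1v0018600 3.04 and 1.66. The hydroxylase LotjaGi4g1v0019000 had 3.903, and the methyltransferases LotjaGi4g1v0062900 and LotjaGi1g1v0513400 had 3.17 and 2.36. In the lignin branch, LotjaGi1g1v0005500 had 1.18, and dirigent gene LotjaGi3g1v0200600 had 2.04.

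Defence and detoxification genes were positive too. Chitinase 10 (LotjaGi5g1v0237600) had 3.57, the acidic endochitinase LotjaGi5g1v0294000 3.38, the thaumatin-like gene LotjaGi1g1v0685100 2.39 and the glucanase LotjaGi3g1v0535300 2.07. Receptor kinases LotjaGi1g1v0358400, LotjaGi5g1v0345500 and LotjaGi5g1v0283300 had 2.398, 1.82 and 1.29. Glutathione S-transferases LotjaGi3g1v0221800 and LotjaGi5g1v0252100 had 2.07 and 0.68, and glutathione peroxidase LotjaGi4g1v0458000 had 0.64. SAG101 (LotjaGi2g1v0250800) had 1.67.

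Of the transcription factors and clock genes, ERF098 (LotjaGi5g1v0180400) had 4.93, WRKY33 (LotjaGi1g1v0449400) 3.28, WRKY53 (LotjaGi4g1v0433600) 3.53 and WRKY50 (LotjaGi5g1v0047800) 1.52. NAC47 (LotjaGi1g1v0639500) had 1.34, and the JA2L genes LotjaGi3g1v0320800 and LotjaGi3g1v0077100 had 1.78 and 1.24. The MYB36-described gene LotjaGi4g1v0091600 had 1.91, REVEILLE 6 (LotjaGi5g1v0296400) 3.83 and GIGANTEA (LotjaGi5g1v0287700) 1.66. MYB48 (LotjaGi2g1v0369100) was negative, at -1.79.

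The iron storage genes had smaller differences with salt, -2.64 for ferritin-3 (LotjaGi3g1v0197600) and -2.14 for the vacuolar transporter LotjaGi6g1v0356300, while ferric reduction oxidase 2 (LotjaGi3g1v0385800) had 1.01. Other negative values were -1.38 for the SWEET gene LotjaGi1g1v0335200, -0.55 for the Lea14 homologue LotjaGi1g1v0481800, -1.37 and -1.41 for the lipases LotjaGi3g1v0397600 and LotjaGi3g1v0397700, -0.96 for the assembled lipoxygenase transcript, -1.13 for the assembled transcript described as RPL7-3 and -2.05 for LotjaGi2g1v0369700_LC beside spastin. Other positive values were 2.39 for abscisate glucosyltransferase LotjaGi4g1v0077200, 2.22 for nitrate transporter 2.5 (LotjaGi4g1v0155900), 1.85 for SAUR50 (LotjaGi4g1v0419000), 0.61 for cyclin A2-2 (LotjaGi1g1v0389100) and 0.71 for the most abundant called transcript.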

How the results depend on the processing

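Of 21 alternatives to the test of line 2 against WT, none reversed the direction of the 148 called genes named here or by the rule, and 94 kept the call under every one. Named genes under a mean FPKM of 5 were not tested with that filter and were not counted as having lost the call there. The sign turned in 2 genes that were not called, with values on the log2 scale. LotjaGi3g1v0486500 was at -0.012 without the 9 libraries on the lower side of the first component, which leaves replicate 3 alone in line 2. The RuBisCO gene LotjaGi2g1v0052900 was at 0.26 with quantile normalization. The component split the 18 libraries 9 to 9 by sign, so both sides were left out in turn, and the set of 8 was chosen after seeing the data. Taking the sides as a term gave 4230 calls, 2265 higher and 1965 lower, and the set of 8 as a term 1703 lower. Leaving out the lower side gave 1301 calls (878 higher, 423 lower), the upper side 947 (723 and 224) and the set of 8 1305 (857 and 448). A mean FPKM of at least 5 left 877 higher, and scaling to the gene total 643 lower. Without the set of 8, 23 of the 148 lost the call. With any 1 library left out the calls ranged from 1685 to 2382, the higher from 1034 to 1388 and the lower from 625 to 994.

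For line 2 against line 1 the 30 calls became 18 by limma voom, 8 at a mean FPKM of at least 5, 12 without the lower side and 2 without the set of 8, and 23 to 25 with 1 library left out. With salt, the 5125 calls became 3327 at a mean FPKM of at least 5, 3331 with only the compared groups, 2535 and 2726 without the lower and upper side and 2893 without the set of 8, and 3965 to 4866 with 1 library left out. The difference between conditions gave 2827 calls with the sides as a term, 487 and 627 without the lower and upper side, 905 without the set of 8 and 1257 to 1741 with 1 library left out. Line 1 against WT gave 1536 with only the compared groups, 245 without the upper side, 478 without the set of 8 and 1416 to 2283 with 1 library left out, the lowest without line 1 replicate 2 and 1475 without WT replicate 3. Leaving out libraries also leaves fewer to test. Without salt, line 1 keeps replicate 1 alone without the set of 8 or the upper side. WT keeps replicate 1 alone without the upper side, and line 2 replicate 3 without the lower side. With salt, the fit without the lower side keeps WT replicate 1 and line 2 replicate 2 alone. Counts from groups with 1 library are listed only, and no conclusion is drawn from them. Otherwise the cause of the changes in count was not tested.

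Deviations of same-numbered WT and line 2 libraries correlated at 0.148, -0.143 and -0.078, within the range of differently numbered pairs (-0.242 to 0.360). With 3 libraries a group this cannot decide whether equal numbers mark paired samples. With the replicate block 2521 genes were called, 1452 higher and 1069 lower. Medians of all genes moved by under 0.1 on the log2 scale with each scaling. Precision is limited by 3 libraries a group, and genes under the filter were not tested.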
